A study of Mus musculus with 2 samples.

Results

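The coelomic epithelium is the sheet of mesoderm that lines the body cavity, and over the medial face of the urogenital ridge it thickens into the gonadal ridge, from which the supporting cells of testis and ovary and the adrenal cortex arise. Wt1, a zinc finger transcription factor, marks this epithelium and the mesenchyme below it. Upk3b, a uroplakin of the apical membrane, marks cells that remain at the surface, whereas Nr5a1, the nuclear receptor that switches on steroid and gonad genes, marks cells that have entered the gonadal or adrenal primordium, and Lhx9 is a LIM homeobox factor of the gonadal ridge.

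Whole aorta-gonads-mesonephros (AGM) regions of E11 mouse embryos were dissociated and measured by single-cell RNA sequencing, with 1 library of wild-type cells (WT, PDGFRB +/+) and 1 library of cells without PDGFRβ (KO, PDGFRB -/-). The null allele is constitutive, on a C57BL/6J background, so KO cells of every type lack the receptor, and the number of embryos behind each library is not given in the sources used here. The files held 179743201 unique molecular identifiers (UMIs, each counting 1 captured transcript) for WT and 174597654 for KO. With 1 library per genotype there was no replicate, so no test between genotypes was possible and no p-value is given. All intervals are 95% intervals that cover counting error only.

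Cells were selected on measured values. Of the barcodes with at least 2000 UMIs and less than 10% mitochondrial UMIs, 8253 in WT and 8165 in KO, a barcode was a member when it held at least 1 Wt1 UMI and at least 2 UMIs of Upk3b, Lhx9 and Nr5a1 together. This gave 418 members of 16418 barcodes. There were 263 in WT, or 3.19% of its barcodes (exact Clopper-Pearson interval 2.82 to 3.59%), and 155 in KO, or 1.90% (1.61 to 2.22%). Barcodes of erythroid cells, which should lack these genes, gave 0 members of 651 in WT and 0 of 198 in KO, at median depths of 16224 and 18995 UMIs. Members were deep, with a median of 37350 UMIs and 6365 genes in WT and of 35714 UMIs and 6178 genes in KO, against 13055.5 and 12275 UMIs in the other barcodes, and the share of barcodes that pass the rule depends on this depth. No member barcode occurred in both libraries, although 20 barcodes past the filters did.

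The rule has a threshold on a small sum. Among Wt1-positive barcodes, 1317 in WT and 1105 in KO had no UMI of the other 3 genes, and 116 and 45 had exactly 1 and lay just outside. Just inside, 40 and 20 members had a sum of 2, whereas 159 and 104 had 5 or more. A further 85 barcodes in WT and 32 in KO met the sum without a Wt1 UMI, and 41 and 17 members were held by a single Wt1 UMI.

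Each member was placed by its Upk3b and Nr5a1 UMIs. The surface side (Upk3b detected, Nr5a1 at 0) held 160 WT and 91 KO cells, 60.8% (54.7 to 66.8%) and 58.7% (50.5 to 66.5%) of the members. The gonadal or adrenal side (Nr5a1 detected, Upk3b at 0) held 32 WT and 26 KO cells, 12.2% (8.47 to 16.7%) and 16.8% (11.3 to 23.6%). A further 17 WT and 8 KO cells held both genes, and 54 WT and 30 KO cells held neither and were members through Lhx9. The intervals of the shares of each side overlapped between the libraries. The order of the gonadal or adrenal shares turned under other settings, at 7.69% of 52 members in WT and 3.45% of 29 in KO with mitochondrial UMIs under 5%, and at 15% of 20 and 7.69% of 13 when cells were thinned to 2000 UMIs before selection. Median depth was 34897.5 UMIs on the surface side and 38886 on the gonadal or adrenal side in WT, and 28414 and 46415.5 in KO.

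**Figure D1:**
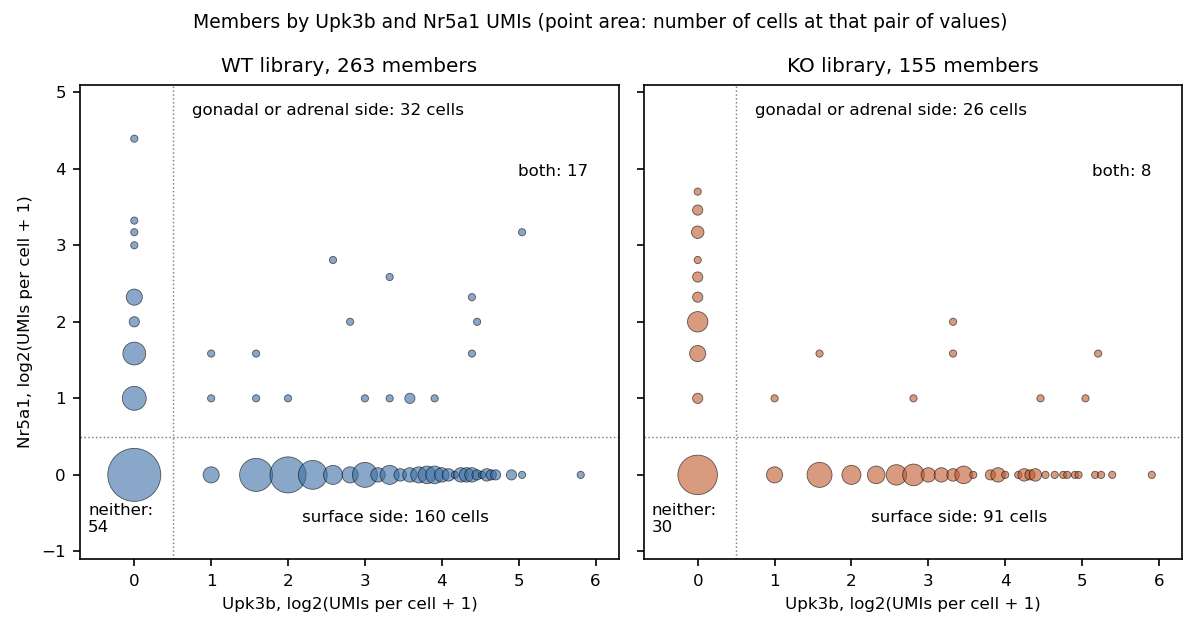
Members of each library by their Upk3b (x axis) and Nr5a1 (y axis) UMIs per cell, both as log2(UMIs + 1), with the area of a point giving the number of cells at that pair of values and dotted lines separating 0 from 1 or more UMIs. Most cells lie on the axes, 160 and 91 along the Upk3b axis and 32 and 26 along the Nr5a1 axis in WT and KO, and 17 and 8 cells lie off both.

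The genes of the rule, given as a description, had the following levels in CPM (UMIs of a gene per 1000000 UMIs, after pooling the cells of a group). Wt1 (GRCm38, chr2:105126529-105173616, + strand) stood at 252 CPM in WT and 212 in KO, and at 34.5 and 25.5 in the other barcodes. Upk3b (chr5:136038496-136046487, + strand) stood at 138 and 144 CPM, and on the surface side at 203 and 251. Nr5a1 (chr2:38692656-38714542, - strand) stood at 79.9 and 78.8 CPM on the gonadal or adrenal side, with a lowest, median and highest cell of 15.1, 68.6 and 454 CPM in WT and of 17.1, 71.9 and 629 in KO. Lhx9 (chr1:138825186-138848577, - strand) was found on both sides, in 43 of 160 WT and 27 of 91 KO surface cells and in 26 of 32 and 15 of 26 cells of the gonadal or adrenal side, against 1.08% and 0% of erythroid barcodes. Cells with both Upk3b and Nr5a1 had the highest Lhx9, 484 CPM in WT and 361 in KO, and the highest Wt1, 475 and 434.

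Pdgfrb, the deleted gene, had 3.20 CPM in KO members against 37.6 in WT (log2 -3.55, -4.23 to -2.95). It was detected in 82 of 160 WT surface cells and 7 of 32 WT cells of the gonadal or adrenal side, and in 6 of 91 and 2 of 26 KO cells. In the other barcodes Pdgfrb stood at 7.30 CPM in KO and 43.6 in WT, so residual KO UMIs were not particular to the members. In WT, members had 0.22 less on the log2 scale than the other barcodes (log2 -0.22), and Pdgfra, the related receptor, had log2 -0.21 in WT and -0.34 in KO.

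The libraries also differed by sex. Xist, the noncoding RNA of the inactive X chromosome, had 728 CPM in WT members and 0 in KO members, and Ddx3y, a helicase of the Y chromosome, had 0 in WT and 72.9 in KO. On the gonadal or adrenal side Xist was in 29 of 32 WT cells and Ddx3y in 23 of 26 KO cells. The Y-linked Uty, Kdm5d and Eif2s3y were likewise higher in KO members. Sry, the Y-linked gene that directs testis formation, had a single UMI, in 1 KO cell of the gonadal or adrenal side. The members of the WT library were thus XX and those of the KO library XY, and sex, genotype and library cannot be told apart in anything that follows between libraries.

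Members were first set against all other barcodes of their own library, separately in WT and KO. The genes with the greatest ratios included genes of a mesothelial surface and of the early gonad, and those with the lowest included genes of blood, muscle and endothelium. Of 12661 genes compared (those with at least 10 UMIs expected on the smaller side), 373 (2.95%) were at least 2-fold higher in members in both libraries and 625 (4.94%) at least 2-fold lower. The members were selected on these same UMIs, so the counts are a description without a test. The median gene stood at log2 0.12 in WT and 0.03 in KO, so a small part of each WT ratio is shared by all genes.

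The 12 genes with the greatest ratios in both libraries were, beside the genes of the rule, Tm4sf5, Upk1b, Lrrn4, Amhr2, Krt7, Ildr2, Kctd14, Podxl, Myl7, Gata4, Lgals7 and Wnt6. Tm4sf5, a tetraspan membrane protein (chr11:70505244-70511178, + strand), had 42.0 CPM in WT members against 0.59 elsewhere (log2 6.16, 5.82 to 6.52), and 64.1 against 0.56 in KO (6.83, 6.48 to 7.20). The mean of the CPM of single cells gave 5.17 in WT. Upk1b, the uroplakin that pairs with Upk3b, had 24.5 against 0.35 CPM in WT and 32.4 against 0.30 in KO. Gata4, a zinc finger factor needed for the gonadal ridge to thicken, had 40.1 against 1.93 CPM in WT (log2 4.38) and 55.1 against 1.16 in KO (5.57). Amhr2, the receptor of anti-Müllerian hormone, had 42.9 against 1.16 and 46.7 against 0.64 CPM. The keratin Krt7 and the podocalyxin gene Podxl, whose product coats apical membranes, had log2 ratios of 4.67 and 4.61 in WT and of 5.86 and 4.80 in KO. Lrrn4, Ildr2, Myl7, Lgals7 and Wnt6 had ratios between log2 3.89, of Wnt6 in KO, and 6.35, of Lrrn4 in KO.

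The pooled members were mostly surface cells chosen by Upk3b, so the next values are no check of the label for the others. The members were set beside the mesothelial and surface epithelial list. Of its 33 genes 22 could be compared, and 16 were higher in both libraries and 0 lower, with medians of log2 2.44 in WT and 2.85 in KO. The 16 include keratins (Krt18 at log2 2.46 and 3.20, Krt19 at 3.04 and 4.84), polarity and junction genes (Crb2, F11r, Cgn, Pard6b, Dsp, Ezr) and the Wnt agonist Rspo1 (2.21 and 2.44). Msln, a textbook mesothelial gene of later stages, had 2 UMIs in WT members and 0 in KO.

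Among urogenital ridge transcription factors, 9 of 28 were higher and 2 lower. The higher genes included Gata4, Gata6, Emx2, Tcf21, Nr2f2, Zfpm2, Bnc1 and Bnc2, of which Emx2, a homeobox factor without which gonads and kidneys do not form, had 67.7 against 9.84 CPM in WT and 50.3 against 9.89 in KO. The lower genes included Foxc2, a factor of somite and nephrogenic mesoderm. Osr1, which is broad in intermediate mesoderm, had log2 0.05 in WT and -0.31 in KO.

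In signaling, 5 of 32 Wnt genes were higher and 0 lower. They were the ligands Wnt4 (log2 2.43 and 1.45), Wnt6, named above, and Wnt9a (2.47 and 1.90), the agonist Rspo1 and its receptor Lgr4. Of 23 IGF and FGF genes, 4 were higher (Fgf9, Fgf10, Fgf18 and Kitl), with Fgf9, a mesothelial growth factor that also drives testis formation, at log2 3.14 and 2.83. Of 16 basement membrane genes 5 were higher and 0 lower, among them the laminin chains Lama1 and Lama5 and nephronectin (Npnt). Of 17 retinoic acid genes Aldh1a1, a retinaldehyde dehydrogenase, was higher (2.38 and 3.45) and 3 were lower. None of the Hedgehog (11), gastro-splenic mesenchyme (6), S and G2M phase (30), dissociation stress (14) and glycolysis (18) genes compared was past the fold in either direction. Of Hox genes 3 of 28 were higher (Hoxd3, Hoxd8 and Hoxd9), of BMP and TGF-beta genes 1 of 31 (Gdf6) with 2 lower, of Notch genes 0 of 17 with 4 lower, of EMT genes 0 of 22 with 2 lower, and of PDGF genes 0 of 7 with Pdgfb lower.

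Lists of later gonad differentiation were set beside the 2.95% of all genes that were higher and the 4.94% that were lower. Of the Sertoli and granulosa list 3 of 19 were higher (Wnt4, Fgf9 and Gadd45g) and 2 lower, and of the steroidogenic and adrenal list 1 of 13 (Inha) with 2 lower. Star, the cholesterol carrier of steroid synthesis, had 27 UMIs in WT members and 37 in KO, and Cyp11a1, the enzyme that starts steroid synthesis, 30 and 27, so both were below the number needed for comparison. Sox9, the transcription factor of Sertoli cells that is also strong in cartilage and crest, was lower in members than elsewhere, at 36.9 against 91.4 CPM in WT (log2 -1.31) and 93.5 against 125 in KO (-0.42).

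Most lists of other cell types had more genes lower than higher in the members, whereas the podocyte list had medians of log2 0.68 and 0.75. All 11 erythroid and all 12 macrophage genes compared were lower, as were 11 of 13 endothelial, 9 of 10 skeletal muscle, 7 of 12 neural and 4 of 7 sclerotome genes. Of the smooth muscle list 4 of 12 were lower and 1 higher (Kcnj8), of the nephric list 4 of 11 and 1 (Spp1), of the podocyte list 2 of 11 and 3 (Podxl, Magi2 and Cd2ap), of the germ cell list 2 of 10 and 1 (Utf1), and of the hepatoblast and gut list 2 of 4 and 1 (Cpa1). The 8 genes named as lowest were the neutrophil genes S100a8 and S100a9, the stefins Stfa1 and BC100530, whose near-identical copies may share reads, the muscle genes Myh3, Tnnc2 and Neb, and Cdh5, the endothelial cadherin, with 1 UMI in WT members and 0 in KO. Summed macrophage genes had 32.9 CPM in WT members and 43.0 in KO against 324 and 274 elsewhere, and summed endothelial genes 72.1 and 59.9 against 176 and 202. Summed erythroid genes had 3184 CPM in WT members and 91.2 in KO against 57152 and 23059 elsewhere, and 5 WT members with at least 1% erythroid UMIs carried most of this, since the level without them was 249.8 CPM.

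**Figure D2:**
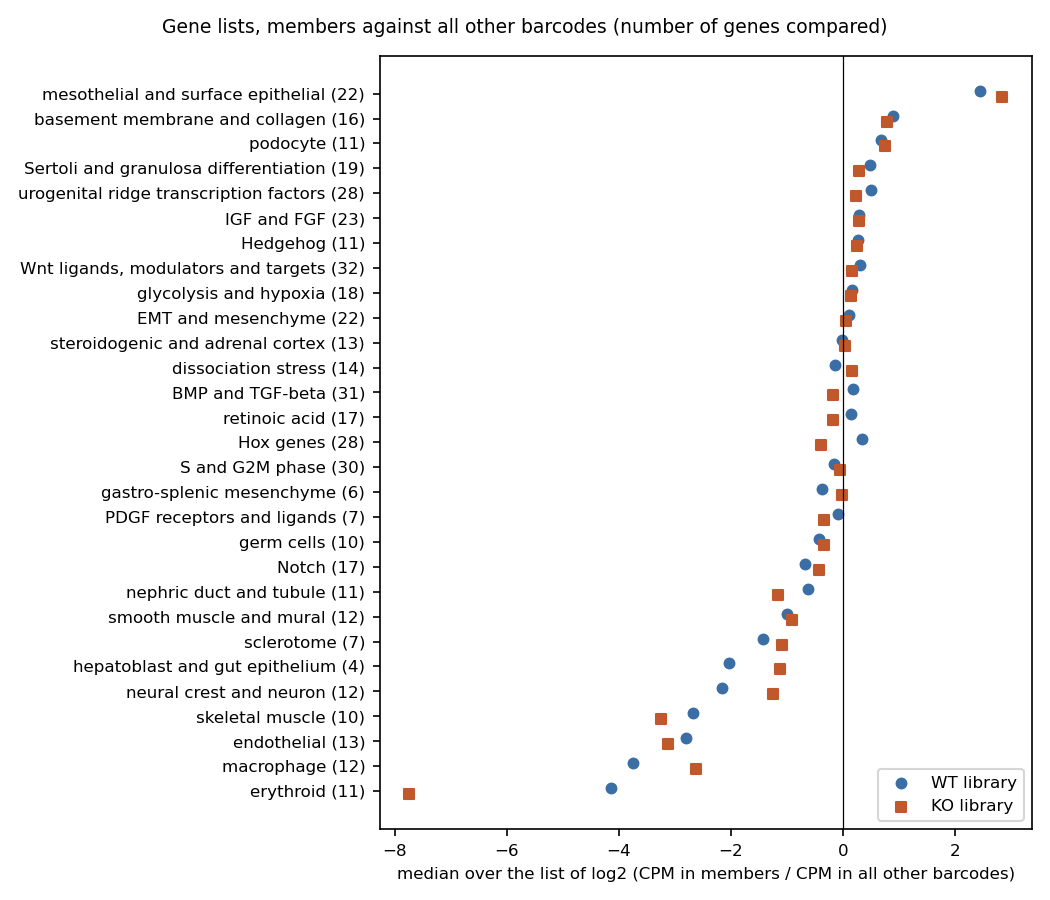
Median over each gene list of the log2 ratio of CPM in members to CPM in all other barcodes of the same library, for WT (circles) and KO (squares), with the number of genes compared after the name of the list. Of the lists shown, which leave out the genes of the rule and lists with fewer than 3 genes compared, the mesothelial and surface epithelial list lies furthest to the right, at 2.44 and 2.85, and the erythroid list furthest to the left, at -4.13 and -7.74.

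Mesenchyme positive for Tcf21 lies below the epithelium and is known to hold Wt1 as well. Against the 1044 WT and 906 KO barcodes with at least 2 Tcf21 UMIs and no Barx1 UMI that were not members, 397 of 12417 genes (3.2%) were at least 2-fold higher in members in both libraries and 205 (1.65%) at least 2-fold lower. Tm4sf5 (log2 6.01 and 7.02), Upk1b (6.32 and 6.69), Krt19 (4.66 and 5.45), Bnc1 (4.65 and 4.35), Amhr2 (4.38 and 5.44) and Gata4 (3.27 and 4.09) remained higher. Aldh1a2, which makes retinoic acid in coelomic mesoderm, had log2 -0.41 and -0.65, Pdgfra -0.59 and -0.88, and Col1a1 0.49 and 0.25, all within 2-fold.

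The sides were then compared with each other within each library. Upk3b and Nr5a1 chose the sides and are no result, nor is any gene measured in the same cells a test of the split, but the rest of the transcriptome shows what went with them. Of 8997 genes compared, 217 (2.41%) were at least 2-fold higher on the gonadal or adrenal side in both libraries and 407 (4.52%) at least 2-fold higher on the surface side. Over 8993 genes, leaving out those of the rule, the log2 ratios of the libraries had a Pearson r of 0.72 and the same sign for 6145 (68.3%), a description across genes, which are not replicates.

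The gonadal or adrenal side had among its leading genes Akr1cl, Kctd14, Cst8, Cpa1, Etnk2, Lgals7, Wnt6, Bst2, Kitl and Mettl24. Akr1cl, an aldo-keto reductase (chr1:65012689-65032759, - strand), had 396 UMIs in the 32 WT cells and 5 in the 160 surface cells (313 against 0.70 CPM, log2 8.81), and 1094 against 1 in KO (743 against 0.27 CPM). Kctd14 (chr7:97451323-97459557, + strand), which encodes a protein with a tetramerization domain, had 1412 against 5.72 CPM in WT (log2 7.95) and 2467 against 5.72 in KO (8.75). Its lowest, median and highest cell had 0, 636 and 3914 CPM on this side in WT and 0, 2963 and 7154 in KO, whereas the surface median was 0 in both. Kctd14 was found in 28 of 32 and 25 of 26 cells of this side, in 29 of 160 and 16 of 91 surface cells, and in 4.30% and 1.52% of erythroid barcodes. Kitl, the ligand that guides germ cells to the gonad, had 361 against 15.1 CPM in WT (log2 4.58, 4.28 to 4.90) and 210 against 7.90 in KO (4.73, 4.18 to 5.33). Wnt6 had log2 4.98 and 5.17 and Lgals7 6.89 and 5.74, so both were carried mostly by this side.

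Cst8, a cystatin, and Amhr2 were also the 2 of 153 genes higher on this side, among those with a promoter window, that held the letters CAAGGTCA, the site bound by Nr5a1. The windows, from RefSeq on GRCm38.p6, run from 250 bases before to 50 bases after the start of a gene, and both strands were searched. That share, 1.31%, lay near the 1.25% of 7119 compared genes with a window, the 0.987% (3 of 304: Wdr86, Lgi2 and Sgk1) of genes higher on the surface side, and the 1.76% of all 27025 genes, so the letters did not set these genes apart. The 250 bases before the start of each gene are shown 5′ to 3′ because in these 2 windows the letters coincide with a higher level on this side, with the matched letters in capitals, 232 to 225 bases upstream in Amhr2 (chr15:102445117-102445366, + strand) and 48 to 41 in Cst8 (chr2:148798589-148798838, + strand). The GENCODE annotation starts Cst8 at 148798785, 54 bases before the RefSeq start, so by that annotation its matched letters lie within the gene, whereas both annotations start Amhr2 at the same base.
Amhr2: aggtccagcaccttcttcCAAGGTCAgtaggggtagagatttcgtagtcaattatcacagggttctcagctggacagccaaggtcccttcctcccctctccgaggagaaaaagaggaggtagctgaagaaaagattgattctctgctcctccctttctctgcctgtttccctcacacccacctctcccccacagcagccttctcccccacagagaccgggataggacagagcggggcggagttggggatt
Cst8: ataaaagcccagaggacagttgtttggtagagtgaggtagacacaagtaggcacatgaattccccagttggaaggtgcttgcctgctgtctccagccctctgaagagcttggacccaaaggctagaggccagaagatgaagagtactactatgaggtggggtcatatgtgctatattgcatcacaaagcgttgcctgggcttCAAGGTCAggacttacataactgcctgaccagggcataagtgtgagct

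Amhr2 stood at 188 against 8.23 CPM in WT (log2 4.51) and 131 against 18.8 in KO (2.80). On the gonadal or adrenal side it was in 25 of 32 cells in WT and in 23 of 26 in KO, in 28 of 160 and 18 of 91 surface cells, and in 0.154% and 0.505% of erythroid barcodes.

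Regulators of the gonad and adrenal divided between the sides. Of 27 urogenital ridge factors, 6 were higher on the gonadal or adrenal side (among them Gata4, Zfpm2, Nr0b1 and Tbx2) and 3 on the surface side (Hoxa9, Bnc1 and Bnc2). Nr0b1, which opposes Nr5a1 on steroid promoters, had 55.4 against 2.23 CPM in WT (log2 4.63) and 31.9 against 2.18 in KO (3.87). Gata4 had log2 1.30 and 2.08 and its cofactor Zfpm2 1.00 and 1.05. Bnc1, a basonuclin of stratified and mesothelial epithelia, had 587 UMIs on the WT surface side and 6 on the other, and 341 and 0 in KO.

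The steroid genes Cyp11a1 and Star had few UMIs even where Nr5a1 was present. Of the steroidogenic and adrenal list 3 of 12 genes compared were higher there (Nr0b1, Inha and Fdxr) and 0 lower. Cyp11a1 had 27 UMIs in 9 of 32 WT cells and 26 UMIs in 7 of 26 KO cells, against 2 UMIs in WT and 1 in KO on the surface side and 0 of the erythroid barcodes. Star had 13 and 20 UMIs against 7 and 8. In WT 8 of the 9 Cyp11a1 cells held Gata4 and 8 held Nr0b1, and in KO all 7 held Gata4, Amhr2 and Nr0b1. Amhr2 is known as a gene of the gonad, but counts this small do not divide the side into a gonadal and an adrenal share.

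The surface side was led by Krt19, Fmod, Tmem151a, Lrrn4, Npnt, Ildr2, Mab21l2 and Lum. Krt19 (chr11:100140810-100148665, - strand) had 639 UMIs in WT surface cells and 0 on the other side (log2 of -5.23 or lower for the gonadal or adrenal side, with 0 set to the 3 UMIs it allows), and 399 against 2 in KO. It was in 121 of 160 WT and 67 of 91 KO surface cells and in 0 of 32 and 1 of 26 cells of the gonadal or adrenal side, where 0 of 32 allows a share of cells with a UMI of up to 9.38% (3 cells of 32), and in 0.614% and 0.505% of erythroid barcodes. Upk1b and Tm4sf5 had no UMI on the gonadal or adrenal side of either library, against 264 and 376 UMIs on the WT surface side and 218 and 364 on the KO surface side. Of 21 mesothelial genes compared 13 were higher at the surface and 1, Lgals7, lower, with medians of log2 -1.93 and -1.62 for the gonadal or adrenal side over the surface.

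Other lists also held genes past the fold toward the surface. Over all genes compared between the sides, 4.52% were higher at the surface and 2.41% on the gonadal or adrenal side. A gene or 2 of a short list is therefore not read as a result about the list. Of 22 EMT and mesenchyme genes 9 were higher there, among them Col1a1 (142 against 761 CPM in WT, log2 -2.43, and 87.0 against 565 in KO, -2.70), Dcn, Postn and Fn1, while the transcription factors Snai2 (1.53 and 1.95) and Zeb2 (1.85 and 1.47) were higher on the gonadal or adrenal side. Of 24 Hox genes 14 were higher at the surface and 0 on the other side, with medians of -1.21 and -1.72. The 14 held genes of anterior groups, such as Hoxa5 (-2.08 and -2.28), Hoxb3 (-1.85 and -3.02) and Hoxb4 (-1.15 and -2.28). Genes of more posterior groups, Hoxa7, Hoxb8, Hoxa9 and Hoxd11, were also among them. Aldh1a2 (-1.70 and -3.53) and the retinoid receptor Rarb (-2.52 and -3.23), both genes of retinoic acid signaling, were the 2 of 12 retinoid genes past the fold. Of 5 gastro-splenic genes compared 4 were higher at the surface, among them the factors Isl1 and Foxf1 and the ligand Wnt2, as were Bmp4 and Tgfb2 of 23 BMP and TGF-beta genes. Of 25 Wnt genes Wnt6 and Lgr4 were higher on the gonadal or adrenal side and 7 lower, including the inhibitors Sfrp1, Sfrp2 and Dkk2 and the agonist Rspo3. Rspo1 had log2 0.08 in WT and -0.74 in KO, both within 2-fold.

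Of the remaining lists, Hey1 was higher and Dlk1 lower on the gonadal or adrenal side among 6 Notch genes, Itga6 higher and 5 lower among 16 basement membrane genes, Kitl higher and 3 lower among 18 IGF and FGF genes, Gas1 lower among 9 Hedgehog genes, Gata3, Cdh6 and Wfdc2 lower among 4 nephric genes, and 1 gene higher among 10 podocyte genes. None of 30 S and G2M phase genes was past the fold. The list counts of this paragraph stand beside the 2.41% of all genes compared that were higher on the gonadal or adrenal side and the 4.52% that were lower. Cell types outside the ridge left few genes to compare between the sides, 2 endothelial, 0 macrophage, 2 neural and 3 muscle genes, with Myl1 higher and Stmn2 lower on the gonadal or adrenal side. Of 5 smooth muscle and mural genes Rgs5 was higher there (log2 3.02 in WT and 2.72 in KO) and Kcnj8 lower (-3.65 and -4.85), and of 9 dissociation stress genes Egr1 was lower (-1.77 and -2.32). Of 3 erythroid genes Hba-a1 was lower (-3.49 and -1.53), and the summed erythroid list had 275 CPM on the gonadal or adrenal side and 3322 at the surface in WT, and 68.6 and 102 in KO. In WT, 3 surface cells and 0 cells of the gonadal or adrenal side had at least 1% erythroid UMIs. Over all WT members the summed level was 3184 CPM with such cells and 249.8 without them. The median WT cell had Hbb-y at 162 CPM on the gonadal or adrenal side and 148 at the surface, where the highest cell had 237678. The WT difference between the summed levels was thus not seen for Hbb-y in the median cell.

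**Figure D3:**
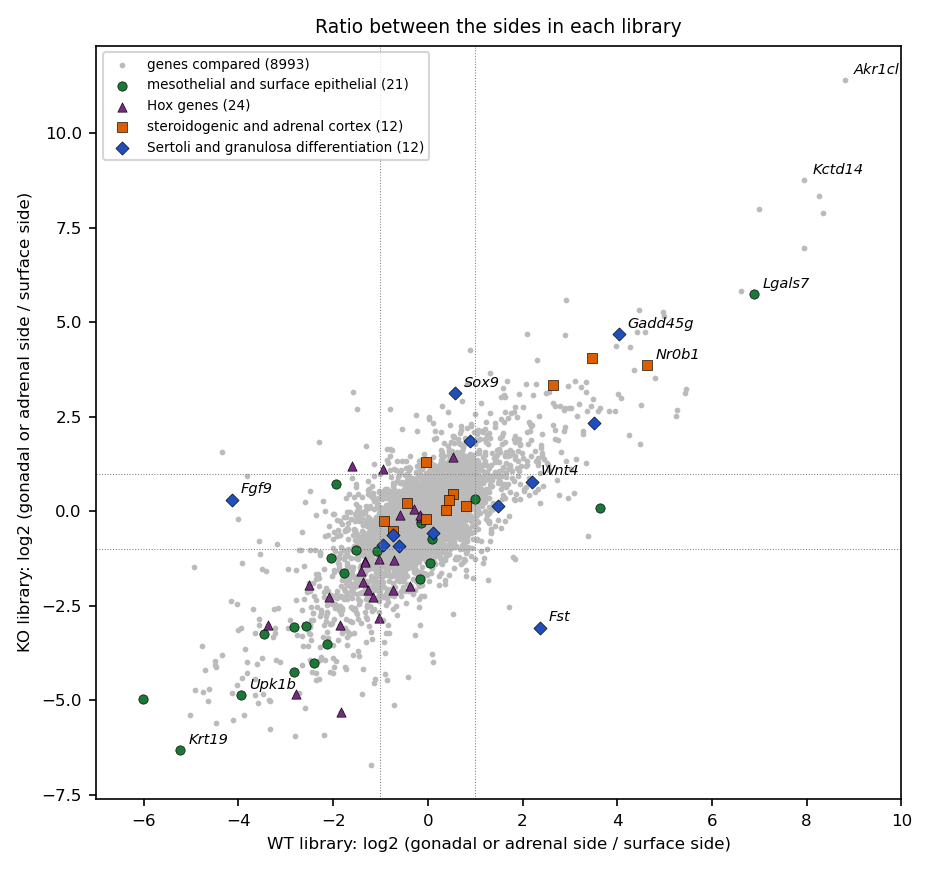
Each of 8993 genes by its log2 ratio of the gonadal or adrenal side over the surface side in WT (x axis) and KO (y axis), with 4 gene lists colored, dotted lines at 2-fold, and a side with 0 UMIs set to 3 UMIs. Akr1cl and Kctd14 lie at the upper right, Krt19 at the lower left, the Hox genes mostly at lower left, and Fst (2.37 in WT, -3.07 in KO) and Fgf9 (-4.13 in WT, 0.31 in KO) lie off the diagonal.

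Members that held both Upk3b and Nr5a1 numbered 17 in WT and 8 in KO. Tm4sf5 was in 15 of 17 and 8 of 8 of them, at 115 and 200.5 CPM, against 52.4 and 99.2 CPM on the surface side and 0 on the other, and it was in 0.154% and 0% of erythroid barcodes. They held Amhr2 at 148 and 115 CPM and Tcf21 at 290 and 381, yet Kctd14 at only 97.3 and 46.3. Doublets were not removed, and with so few cells the part of doublets was not tested. Cells with neither gene had Tcf21 at 286 CPM in WT and 187 in KO, Col1a1 at 481 and 496, and Upk1b at 3 UMIs in WT and 0 in KO. Their median cell had Tcf21 at 160 CPM in WT and 164 in KO, against 25.2 and 10.0 at the surface. Krt19 was at 0 in 47 of 54 WT and 28 of 30 KO cells with neither gene. By these genes the name of an epithelium was not borne out for these cells. Lhx2 had 46 UMIs in these cells in WT and 0 in KO.

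The 2 genotypes were compared over all members and on each side. Over all members, 176 of 12575 genes (1.4%) were at least 2-fold higher in KO, in the same direction on both sides, and 222 (1.77%) at least 2-fold lower. Of 25 Sertoli and granulosa genes compared over all members, 5 were higher in KO (Sox9, Ptgds, Aard, Mro and Nedd9) and 3 were lower (Wnt4, Fst and Bmp2). The others did not meet the fold with the same direction on both sides. Amh could not meet it, since it had no UMI in the surface cells of either library.

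On the gonadal or adrenal side alone, 26 KO against 32 WT cells, 448 of 9115 genes (4.91%) were at least 2-fold higher in KO and 487 (5.34%) at least 2-fold lower. Of the 21 Sertoli and granulosa genes compared there, 9 were higher (Sox9, Amh, Dhh, Ptgds, Fgf9, Aard, Mro, Nedd9 and Lgr5) and 6 lower (Wnt4, Foxl2, Fst, Bmp2, Cdkn1b and Runx1). The first 7 of the higher genes are known for Sertoli cells or the fetal testis, and the first 4 of the lower genes for the fetal ovary. Nedd9 and Lgr5, also higher, and Cdkn1b and Runx1, also lower, were not assigned to either, so that division covers only part of the list. Markers of other cell types moved in the same cells. Of the sclerotome list 2 of 5 genes compared were higher in KO, the cartilage matrix gene Acan (20 UMIs against 4) and Sox6 (77 against 9, in 19 of 26 KO and 7 of 32 WT cells). The summed list had 287 CPM in KO and 156 in WT, with Col2a1 its most abundant gene (111 and 66.5) and Nkx3-2 at 0 in both, and the part of sclerotome RNA in the results was not tested. Of the neural crest and neuron list 2 of 3 were higher, Ngfr (40 UMIs against 16) and Stmn2, whose 53 KO UMIs lay in a single cell. That list summed to 86.3 CPM in KO, with Stmn2 most abundant at 36.0, and to 35.6 in WT, with Ngfr most abundant at 12.7, and Th, Dbh and Elavl3 were at 0 in both. Of 2 endothelial genes Kdr was higher, with Cdh5, Tie1, Tek and Sox17 at 0 in both libraries. Of 7 smooth muscle and mural genes Cspg4 was higher and Acta2 and Des lower, and Des was also the 1 of 3 skeletal muscle genes past the fold. Ctrb1 was higher among 2 hepatoblast and gut genes, Spp1 higher and Cdh6 lower among 6 nephric genes, Podxl lower among 9 podocyte genes, Ifitm3 lower among 3 germ cell genes and Isl1 lower among 2 gastro-splenic genes, and no macrophage gene had enough UMIs to compare. The summed smooth muscle list had 177 CPM in KO and 294 in WT, with Acta2 most abundant (53.7 and 111), and the hepatoblast and gut list 221 and 114.

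Sox9 (chr11:112782224-112787760, + strand) had 273 CPM in KO and 46.7 in WT on this side (log2 2.55, 2.15 to 2.97, or 1.76 after thinning each cell to 2000 UMIs). Its lowest, median and highest cell had 0, 144 and 988 CPM in KO and 0, 0 and 368 in WT, so the ranges overlapped. It was in 23 of 26 KO cells and 12 of 32 WT cells, or 42.3% and 9.38% after thinning, against 2.53% and 3.23% of erythroid barcodes. At the surface Sox9 was even, at 31.3 CPM in KO and 31.2 in WT.

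Amh (chr10:80805243-80807648, + strand), the hormone by which Sertoli cells remove the Müllerian duct, had 173 UMIs in KO and 0 in WT on this side. Against the 3 UMIs that a count of 0 allows, this is at least 5.63 higher on the log2 scale. It was in 16 of 26 KO cells (61.5%, 40.6 to 79.8%, and 19.2% thinned) and in 0 of 32 WT cells, which allows a share of cells with a UMI of up to 9.38% and does not limit the share that express the gene. No erythroid barcode and no surface cell of either library held Amh, and 15 of the 16 cells with Amh also held Sox9. Amh and Wnt4 were found together in 12 of the 16.

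Further genes of this list had few or no UMIs in WT. Dhh, the hedgehog ligand of Sertoli cells, had 105 UMIs in 11 of 26 KO cells and 0 in WT, at least 4.91 higher on the log2 scale, against 0% of KO and 0.154% of WT erythroid barcodes, and 9 of these cells also held Amh. Ptgds, which makes prostaglandin D2, had 168 against 2.37 CPM (log2 6.14), and Aard 412 against 13.5 (4.94, or 3.94 after thinning). Fgf9 had 89 UMIs in 15 of 26 KO cells and 0 in WT on this side, but at the surface it was in 51 of 91 KO and 75 of 160 WT cells, at 48.8 and 41.6 CPM, and no erythroid barcode held it. Among 9 Hedgehog genes Dhh and the receptor Ptch1 were higher and 0 lower.

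Wnt4 (chr4:137277489-137299726, + strand), the ligand that promotes the ovarian fate, had 87.7 CPM in KO and 541 in WT on this side (log2 -2.62, -2.91 to -2.35, or -1.87 as the mean of single cells). Its lowest, median and highest cell had 0, 39.2 and 944 CPM in KO and 0, 471 and 1205 in WT, in 17 of 26 and 27 of 32 cells, or 11.5% and 46.9% after thinning, against 0% and 1.38% of erythroid barcodes. Wnt4 was also lower at the KO surface, at 51.0 against 117 CPM, a difference of log2 -1.20. Rspo1, which acts with Wnt4, had log2 -0.76 (-1.29 to -0.24) on this side.

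Fst (chr13:114452290-114458951, - strand), the activin antagonist made by granulosa precursors, had 8 UMIs in KO and 374 in WT on this side, or 5.44 and 296 CPM (log2 -5.77, -6.99 to -4.77, or -3.83 in the 3 KO and 4 WT cells with fewer than 3 UMIs of other cell types). It was in 4 of 26 KO and 18 of 32 WT cells, or 3.85% and 25.0% after thinning, against 0.505% and 0.307% of erythroid barcodes. All 18 WT cells also held Wnt4. At the surface the difference was log2 -0.32. Bmp2 had 6.79 against 71.2 CPM (log2 -3.39), in 3 of 26 and 15 of 32 cells, against 1.01% and 1.08% of erythroid barcodes. Foxl2, the transcription factor that maintains the ovary, had 5 UMIs in 4 KO cells and 20 in 7 WT cells, with none in erythroid barcodes (log2 -2.22, -3.99 to -0.76), but the mean of the CPM of single cells gave 0.78 in the other direction, since a shallow KO cell held it at 629 CPM.

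**Figure D4:**
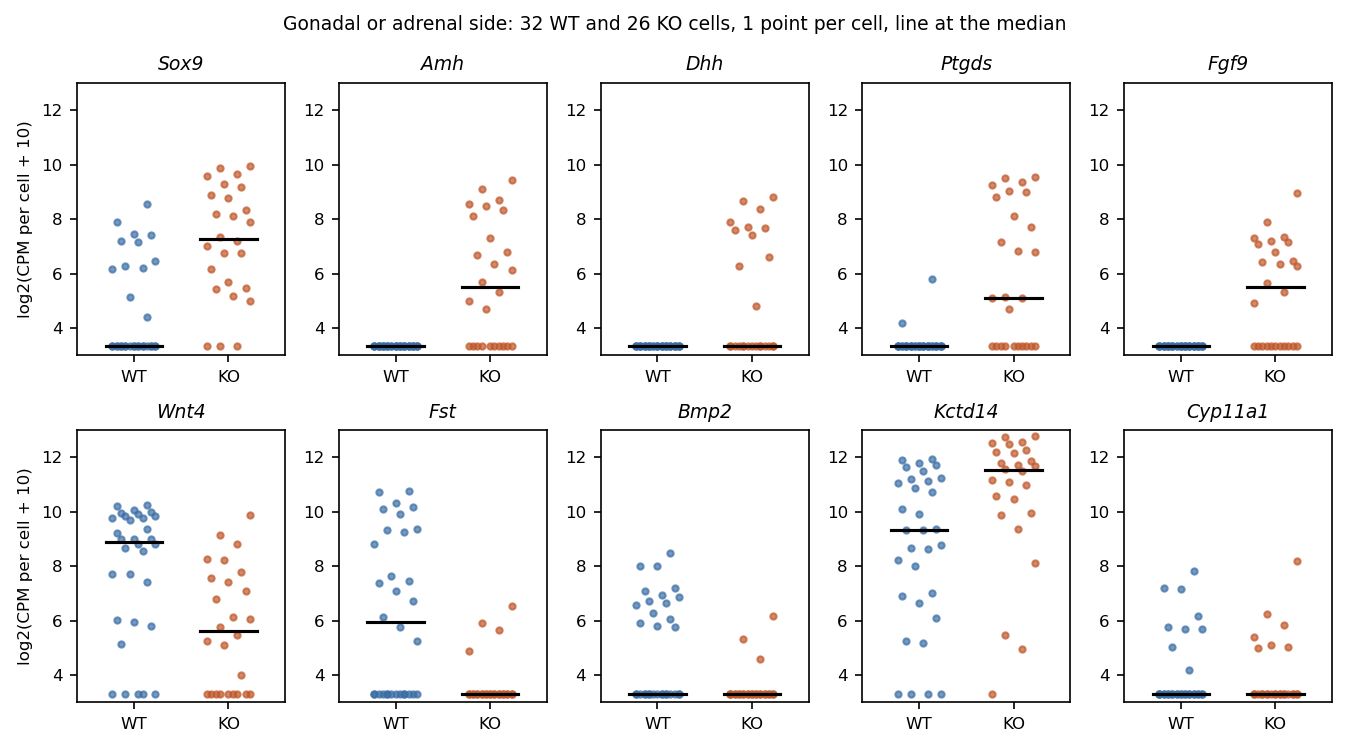
Level of 10 genes in each cell of the gonadal or adrenal side, as log2(CPM per cell + 10), for the 32 WT and 26 KO cells, with 1 point per cell and a line at the median. Amh, Dhh and Fgf9 lie at the floor in every WT cell, Fst lies at the floor in 22 of 26 KO cells, and Sox9, Wnt4, Kctd14 and Cyp11a1 overlap between the libraries.

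Of 15 steroidogenic genes compared on the gonadal or adrenal side, Scarb1 and Inhbb were higher in KO and 0 lower. Of all genes compared there, 4.91% were higher and 5.34% lower. Cyp11a1 had 17.7 CPM in KO and 21.4 in WT (log2 -0.27), Star 13.6 and 10.3, and Gata4 138 and 85.5 (0.69). Kctd14 (0.81) was within 2-fold between the libraries, and Akr1cl (1.25) was not. Over all members Star, Inha and Inhbb were higher in KO, at CPM of 5.15 against 2.29, 22.1 against 10.3 and 23.6 against 5.35. They were 3 of the 17 steroidogenic genes compared, whereas 1.4% of all genes were higher. The gonadal or adrenal side supplied 1471737 of 7190813 member UMIs in KO and 1263504 of 11768507 in WT. Levels over all members thus also depend on the mix of sides, and its part in these 3 genes was not tested. On the gonadal or adrenal side alone only Inhbb of the 3 was past the fold.

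Other pathways were compared on this side by their lists. Of 27 urogenital ridge factors Hoxb9 was higher in KO and 6 lower (among them Emx2, Osr1, Maf, Tbx3 and Hoxa9), with Emx2 at 58.4 against 174 CPM. Of 26 Wnt genes 2 were higher (Lgr5 and Dkk1) and 6 lower, among them the targets Lef1 and Axin2. Of 17 IGF and FGF genes 4 were higher (Fgf9 and the feedback genes Spry4, Dusp6 and Etv5) and 3 lower (Igf1, Igf2 and Fgfr2). Of 13 retinoid genes 2 were higher (Aldh1a1 and Cyp26b1, which removes retinoic acid in the fetal testis) and 3 lower (Aldh1a2, Rdh10 and Crabp2). Cdk1, Aurka and Plk1 of 30 S and G2M phase genes and Jun, Junb, Fosb and Btg2 of 10 dissociation stress genes were higher in KO. Of 13 basement membrane genes 3 were higher (Col4a1, Lama4 and Col18a1) and 1 lower, of 12 mesothelial genes 1 and 4, of 21 EMT genes 0 and 4, and of 5 PDGF genes Pdgfa was higher and Pdgfrb lower. Erythroid genes were lower in the KO library on this side too, 5 of 5, with a summed level of 68.6 CPM in KO and 275 in WT. Over the 10 erythroid genes compared over all members, the median was log2 -1.47 on this side and -1.57 in the other barcodes. The erythroid difference was thus not particular to these cells. No cell of this side in either library had 1% or more erythroid UMIs.

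Across both sides, the 12 genes named as higher in KO were Acvr1c, Dct, Ren1, Serpinb1a, Krt79, Gpr20, Enox2, Ptgds, Ptpro, Zic4, Saa1 and Hist1h2af. Acvr1c, a receptor of the TGF-beta family, had 14.0 CPM in KO members and 0.85 in WT (log2 4.05), against log2 0.74 in the other barcodes. Ren1, renin, had 8.76 against 0.51 CPM (4.10), and was in 13 of 26 KO and 5 of 32 WT cells of the gonadal or adrenal side. Dct, a melanin synthesis enzyme, had 11.7 against 1.61 CPM (2.86), and was in 17 of 26 and 5 of 32 of those cells. No erythroid barcode held Acvr1c, Ren1 or Dct, and each of the 3 had 4 or fewer UMIs in the WT surface cells, so their direction on that side rested on few counts. For Enox2 (2.06) and Hist1h2af (1.59) the other barcodes differed as much, by 2.34 and 1.68.

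The genes named as lower in KO were Hist1h2ap, Pdgfrb, Usp50, Hbb-bh1, Msx1, Msx2 and Hbb-bt. Msx1 and Msx2, homeobox factors of mesenchyme under BMP signals, had log2 -2.87 (-3.33 to -2.44, or -1.15 without members with 3 or more UMIs of other cell types) and -2.52 in members, against -0.65 and -0.47 in the other barcodes. Msx1 had 13.6 CPM in KO and 123 in WT on the gonadal or adrenal side and 4.36 and 43.4 at the surface, in 4 of 26, 23 of 32, 8 of 91 and 48 of 160 cells, against 0% and 1.08% of erythroid barcodes. Hist1h2ap (-4.86) and Usp50 (-3.75) were lower by about as much in the other barcodes (-5.18 and -3.60), so those differences belonged to the whole library, and reads of histone copies can be shared. The beta globins had log2 -5.47 for Hbb-bh1 and -4.61 for Hbb-bt in members, against -2.03 and -0.81 elsewhere, but these values rest on the 5 WT members with at least 1% erythroid UMIs, which held 92.5% of the Hbb-y UMIs of the WT members. Without them Hbb-bh1 had -1.63 (-2.54 to -0.82) and Hbb-bt -1.46. Erythroid genes were lower in 6 of 10 compared.

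**Figure D5:**
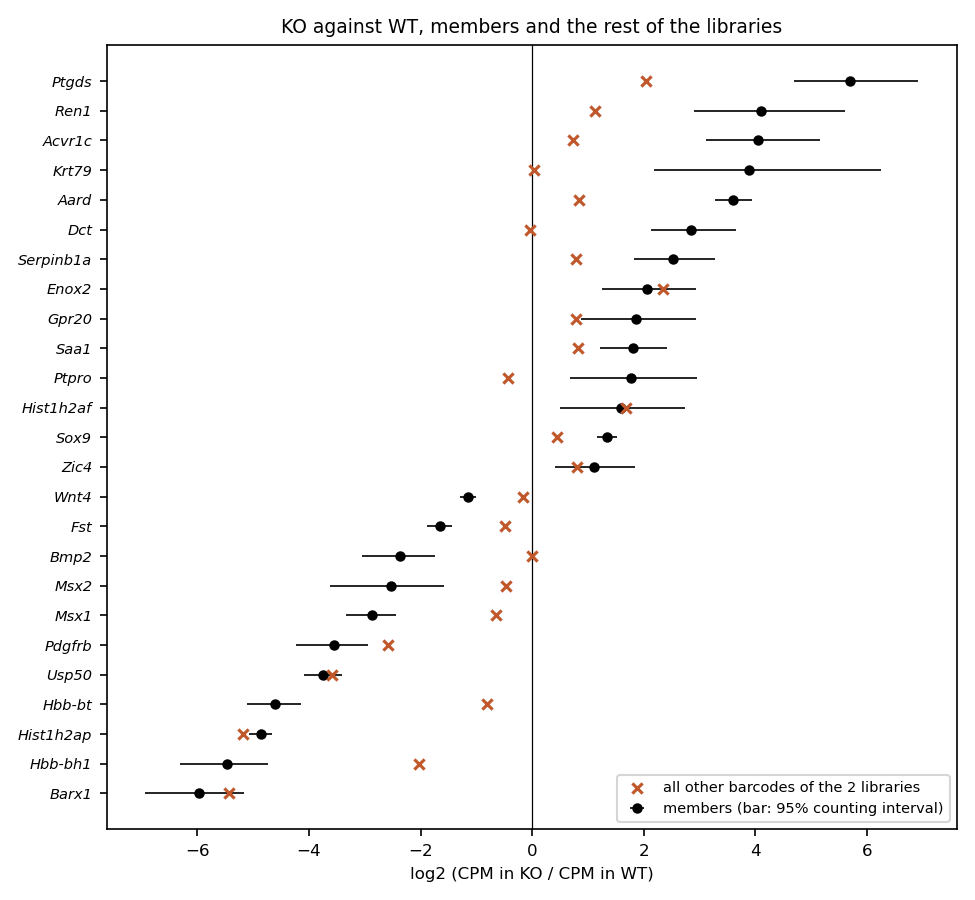
Log2 ratio of CPM in KO to CPM in WT for the genes named above and for Sox9, Aard, Wnt4, Fst, Bmp2 and Barx1, in members (points, with bars for the 95% counting interval) and in all other barcodes of the libraries (crosses). Crosses lie on the points for Usp50, Enox2 and Hist1h2af and away from them for Ptgds, Acvr1c, Dct, Msx1 and Msx2.

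Barx1 differed between the surface sides of the libraries. Barx1 (chr13:48662998-48666507, + strand), the homeobox factor of stomach and spleen mesenchyme, had 131 CPM in WT surface cells and 2.18 in KO (log2 -5.91), against 29.2 and 0.67 CPM in the other barcodes (-5.44). It was in 40 of 160 WT surface cells (25.0%, 18.5 to 32.4%), with up to 135 UMIs in a cell, and in 3 of 91 KO cells (3.30%), against 1.84% of WT erythroid barcodes. Of the 40 cells, 30 also held Krt19 and 23 Upk1b. Of the 7 gastro-splenic genes compared 3 were lower in KO members, Isl1 (-1.02) among them. The Barx1 difference was about as large outside the members as within them, and on the gonadal or adrenal side each library had 3 Barx1 UMIs. Lum and Postn, matrix genes, were lower in KO members as well (-1.82 and -1.04), and in the other barcodes by -1.09 and -1.03.

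The other lists, over all members, were set beside the 1.4% of all genes that were higher in KO and the 1.77% that were lower. None of 30 S and G2M phase, 23 IGF and FGF, 16 basement membrane, 12 Hedgehog and 13 Notch genes was past the fold. Of 30 urogenital ridge factors 1 was higher, of 25 mesothelial genes 1 lower (Sbspon), of 35 Wnt genes 3 lower (Wnt4, Notum and Fzd10), of 33 BMP and TGF-beta genes 2 higher and 2 lower, of 17 retinoid genes 1 higher and 2 lower, and of 29 Hox genes 2 lower (Hoxb5 and Hoxb6). Of 14 dissociation stress genes 2 were higher (Junb and Btg2), and of 18 glycolysis and hypoxia genes 1 was higher (Egln3) and 1 lower (Adm). Among cell types outside the ridge, 0 of 7 macrophage, 0 of 6 endothelial and 0 of 5 muscle genes met the fold with the same direction on both sides. The macrophage list still had a median of log2 1.03 over all members, with 4.94 at the surface and 0 on the gonadal or adrenal side. All 52 C1qa UMIs of the KO surface side lay in a single cell. Lhx9 had 136 CPM in KO and 135 in WT members, but it is a gene of the rule, so this level is a description only. On the gonadal or adrenal side its median cell had 26.5 CPM in KO and 120 in WT.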

How the data were processed

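WT and KO AGM cells of E11 embryos were captured with 10x Chromium Single Cell 3′ v3 chemistry, aiming at 7000 cells a library. The authors made the UMI counts with Cell Ranger 3.1.0 on mm10 (GRCm38) and deposited them as unfiltered matrices, with no normalization. Such counts hold free RNA and doublets, neither of which was removed here. The study called cells with EmptyDrops and dropped KO cells with Pdgfrb, which was tried as an alternative.

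Barcodes were filtered and selected as stated in the report, and UMIs were pooled over each group of cells. A gene was compared when 10 UMIs were expected on the smaller side, and was past the fold at 2-fold or more in the same direction in both libraries. For KO against WT this meant 2-fold over all members with the same direction on both sides, or 2-fold on the gonadal or adrenal side alone. A side with 0 UMIs was set to 3, and 0 cells with a UMI were given the limit of 3 cells. Shares have exact Clopper-Pearson, levels exact Poisson and ratios exact conditional binomial intervals, at 95%, tested on simulated data. Thinning drew 2000 UMIs per cell. Erythroid barcodes had at least 50% of their UMIs from erythroid genes.

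Named genes were Wt1, Upk3b, Lhx9 and Nr5a1, which chose the cells, Pdgfrb, Sry, Sox9, Wnt4, Rspo1, Gata4, Star, Cyp11a1, the sex-linked genes, and the 12 highest and 8 lowest genes past the fold in each comparison by the smaller of their 2 absolute log2 ratios, leaving out selecting, sex-linked, mitochondrial, Rpl, Rps, Gm and Rik genes. Up to 4 genes a list were added by size of ratio or by level. Further list members past the fold, genes of lists named for their roles, and Barx1, Msln and C1qa were named after their values were seen. Some genes of the rule and of the lists are not reported here. The cells, lists and named genes were chosen with earlier results of these data known. Gene positions came from GENCODE M21 and promoters from RefSeq, both on GRCm38. Python 3.11.15, numpy 2.4.6, scipy 1.17.1, pandas 2.3.3 and matplotlib 3.10.9 were used.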

Additional observations from a re-analysis of the deposited data

Results flagged for a closer look

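For 3 genes the gonadal or adrenal side stood on opposite sides of the surface in the libraries, by more than 2-fold each way, and the difference between the libraries was not tested, since each had 1 sample. Fst had log2 2.37 for the gonadal or adrenal side over the surface in WT and -3.07 in KO. Lama4, a laminin chain of vessels and gonads, had -1.50 in WT and 2.70 in KO. Hoxb9, a Hox gene of the trunk, had -1.61 in WT and 1.20 in KO.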

How the results depend on the processing

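With 1 library per genotype, counting error is the only error known, and no replicate could be left out. No paired analysis was possible because the result comes from no test. Of 96 counts and shares under alternatives, 57 stayed within the 95% interval of the reported share or within 1.5 times the reported count, and 39 did not. The member share (3.19% in WT, 1.90% in KO) was 3.68% in WT at 5000 UMIs or more, 2.52% and 1.51% at 1000 UMIs or more, 1.44% and 0.995% with mitochondrial UMIs under 5%, 2.69% in WT at 2 Wt1 UMIs, 2.70% in WT at a sum of 3, and 0.242% and 0.159% when cells were thinned first. The gonadal or adrenal share was 7.69% in WT and 3.45% in KO under 5% mitochondrial UMIs, and 7.69% in KO when thinned first. Counts of genes past the fold, given as higher and lower, rested on fewer genes compared after thinning (730 of 8997 between the sides) and without the 206 WT and 114 KO members that had 3 or more UMIs of other cell types (544, since on the gonadal or adrenal side this removed 28 of 32 cells in WT and 23 of 26 in KO). Members against other barcodes gave 215 and 312 at 30 expected UMIs, 580 higher at 3, 72 and 226 without those members, and 27 and 66 after thinning. In the same order the sides gave 90 and 193, 379 and 637, 2 and 21, and 4 and 23. KO against WT gave 98 and 122 at 30 expected UMIs, 41 and 73, and 45 and 117, and on the gonadal or adrenal side alone, where the alternatives were chosen after seeing the data, 205 and 162, 58 and 57, and 40 and 41. Leaving out members with a Barx1 UMI or with 1% erythroid UMIs, also added after seeing the data, gave 165 and 226 or 173 and 217 for KO against WT. For KO against WT, most genes past the fold without the members that had UMIs of other cell types, or after thinning, were not among the reported calls. Without those members 10 of 41 and 22 of 73 were shared with the reported calls, and after thinning 3 of 45 and 20 of 117, and on the gonadal or adrenal side 6 of 58 and 14 of 57, and 8 of 40 and 15 of 41. Between the sides, 2 of 2 and 5 of 21 were shared without those members, and 3 of 4 and 15 of 23 after thinning. Of 110 ratios of named genes, 25 moved by over 1.5 times under the mean of per-cell CPM, where Foxl2 reversed to 0.78 and 108 stayed past 2-fold in their direction. Only 20 had enough UMIs after thinning and 27 without those members, and of these 18 and 23 moved by over 1.5 times, with all 20 and all 27 past 2-fold in their direction. Most named genes were chosen for large ratios in these same data, so their staying past 2-fold says little about the other genes.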

Other observations

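Some genes outside the lists, chosen after their values were seen, also differed between the libraries on the gonadal or adrenal side. Cst9, a cystatin of fetal Sertoli cells, had 282 CPM in KO and 12.7 in WT, in 15 of 26 and 5 of 32 cells. Tesc, a calcium-binding protein of the developing testis, had 179 against 3.96 CPM, in 18 of 26 and 2 of 32 cells. No erythroid barcode held Cst9, and 1 of 651 in WT held Tesc. Col9a3, a collagen chain, had 115 against 3.17 CPM, and Gatm, the first enzyme of creatine synthesis, 72.7 against 4.75. Calb1, a calcium buffer, had 51.4 CPM in WT and 4.76 in KO, and Slc7a11, a cystine transporter, 24 UMIs against 1. Gpr37 was higher on this side than at the surface in both libraries, at 36.4 against 0.56 CPM in WT and 83.6 against 0.82 in KO.

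The surface sides, again by genes chosen after their values were seen, differed in Colec10, a collectin, with 90 UMIs in KO and 9 in WT, in Tdo2, which breaks down tryptophan, with 52 and 5, and in Penk, an enkephalin precursor, with 6 and 225. Hand1, a factor of lateral mesoderm, had 35.2 CPM in KO and 35.1 in WT surface cells against 0 and 1.58 on the gonadal or adrenal side, and Apela, a peptide ligand, 25.3 and 34.5 CPM against 0 UMIs there in both.

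Free RNA, read from barcodes with at most 100 UMIs, held Xist at 472 CPM in WT and 105 in KO and Ddx3y at 10.1 and 43.3, although KO members had no Xist UMI and WT members no Ddx3y UMI. Whether reads were exchanged between the libraries was not tested. Amh stood at 0 UMIs in WT and 2 in KO in the same barcodes.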
